A study of Mus musculus with 12 samples.

Results

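The transcripts described here are those of 10 genes that move, store or sense zinc, namely the importer genes Slc39a4, Slc39a1, Slc39a6, Slc39a8, Slc39a10 and Slc39a14, the exporter gene Slc30a1, the metallothionein genes Mt1 and Mt2 and the transcription factor gene Mtf1. They were found as all probes whose platform gene symbol equals 1 of these names, which gave 15 of the 45281 probes on the array and 10 of the 19057 genes with a symbol of their own. Slc39a4 was listed because it is among the genes most different between the 2 cell lines, so the line differences of these genes are given as a description, with counts of calls but no p-value, and support nothing. Total RNA of PKSV-PCT cells, which derive from mouse proximal convoluted tubule and were immortalized, was hybridised to Illumina WG-6 v2.0 mouse arrays. In the first line the cells constitutively expressed the S42L mutant of human sex hormone-binding globulin (SHBG), which has no detectable steroid binding, and in the second they expressed wild-type human SHBG, the plasma carrier of androgens. Each line received 100 nM 5α-dihydrotestosterone (DHT) or 100 nM testosterone for 24 h, giving 4 groups of 3 arrays, namely S42L with DHT, wild-type with DHT, S42L with testosterone and wild-type with testosterone. The labels also name 3 days in steroid-free medium, with wording that leaves the order open.

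All groups share the host line, a medium with serum, insulin, dexamethasone, selenium, transferrin, triiodothyronine and EGF, and an androgen, since no group went without. The SHBG constructs were in a CMV promoter plasmid and the lines came from limiting dilution, chosen by the SHBG they secreted. Several clones per construct are not mentioned in the labels, and a clone's own properties cannot be told apart from those of its SHBG variant. The 6 DHT arrays lay on 1 chip and the 6 testosterone arrays on the other, with S42L cells in positions A to C and wild-type cells in positions D to F of both, so androgen and chip, and variant and chip position, cannot be told apart. Separate cultures are not named in the labels, so the p-values reflect only the spread among these arrays, which may be technical. Per array 17314 to 19204 of 45281 probes were detected, meaning a detection p under 0.05 against negative control beads, and the mean signal ran from 560.2 to 707.4.

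Zinc crosses membranes through 2 transporter families. SLC39 proteins (ZIPs) carry it into the cytosol from outside or from organelles, and SLC30 proteins (ZnTs) carry it out of the cytosol. Metallothioneins are small cysteine-rich proteins that bind zinc, copper and cadmium, and in the proximal tubule, which takes up filtered metal, they are a main metal store. The zinc-finger factor MTF-1 senses free zinc and, in mouse cells, activates Mt1, Mt2 and Slc30a1 through metal response elements, while zinc excess acting through MTF-1 lowers Slc39a10. Glucocorticoids, present here as dexamethasone, also induce mouse metallothionein genes.

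The metallothionein and Slc30a1 promoters are shown because these 3 genes lay on the same side in the line comparison and are the textbook genes of the metal response element. RefSeq's promoter table (GRCm38.p6, 250 bases before to 50 after each annotated start) held 7 of the 10 genes, and Slc39a4, Slc39a6 and Slc39a14 are named only. The core was searched on both strands as TGCACNC or TGCGCNC, spellings that cannot match at the same place on 1 strand. The 250 bases before the start are printed 5′ to 3′ on the plus strand, with core matches in capitals. They lie at chr8:94178839-94179088 for Mt1, chr8:94172368-94172617 for Mt2 and chr1:191906531-191906780 for Slc30a1.
Mt1: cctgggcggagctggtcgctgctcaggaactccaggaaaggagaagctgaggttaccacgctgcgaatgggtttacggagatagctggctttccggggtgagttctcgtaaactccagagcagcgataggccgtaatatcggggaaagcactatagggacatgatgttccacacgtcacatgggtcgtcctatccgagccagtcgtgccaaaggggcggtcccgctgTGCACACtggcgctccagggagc
Mt2: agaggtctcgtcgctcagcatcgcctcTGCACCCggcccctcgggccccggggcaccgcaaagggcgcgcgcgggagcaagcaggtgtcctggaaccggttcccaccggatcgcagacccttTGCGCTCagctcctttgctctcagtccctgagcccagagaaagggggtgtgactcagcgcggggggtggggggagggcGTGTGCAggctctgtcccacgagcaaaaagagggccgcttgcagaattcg
Slc30a1: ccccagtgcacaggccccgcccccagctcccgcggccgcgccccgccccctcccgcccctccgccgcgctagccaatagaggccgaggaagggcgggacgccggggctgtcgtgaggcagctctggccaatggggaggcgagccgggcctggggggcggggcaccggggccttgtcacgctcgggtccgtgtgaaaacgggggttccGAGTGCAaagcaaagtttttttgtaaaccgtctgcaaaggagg

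These 250 bases held 1 core match for Mt1, 3 for Mt2 and 1 for Slc30a1. At least 1 match was present in 21.4% of 32851 RefSeq promoter entries of that length, and at least 3 in 1.26%. With the 50 bases after the annotated start included, Mt1 had 3 matches, Mt2 had 4 and Slc30a1 had 2, against shares of 7.11% of entries with at least 2, 1.97% with at least 3 and 0.517% with at least 4. Nothing is read from these shares, since the genes were chosen as textbook genes of this element. The later Mt1 matches are TGCACTC and TGCGCTC, which begin at bases 3 and 21 counted from the annotated start. Bases outside the window were not searched, so the counts may miss further matches. Where transcription of these genes starts in these cells was not measured. Mtf1, Slc39a1 and both entries of Slc39a10 held 0 matches in the 300-base window, and 1 of 2 entries of Slc39a8 held 1. A match describes letters in the window and not binding. In the annotation's order of protein-coding genes, Mt4, Mt3, Mt2 and Mt1 follow each other without another gene between them.

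**Figure D1:**
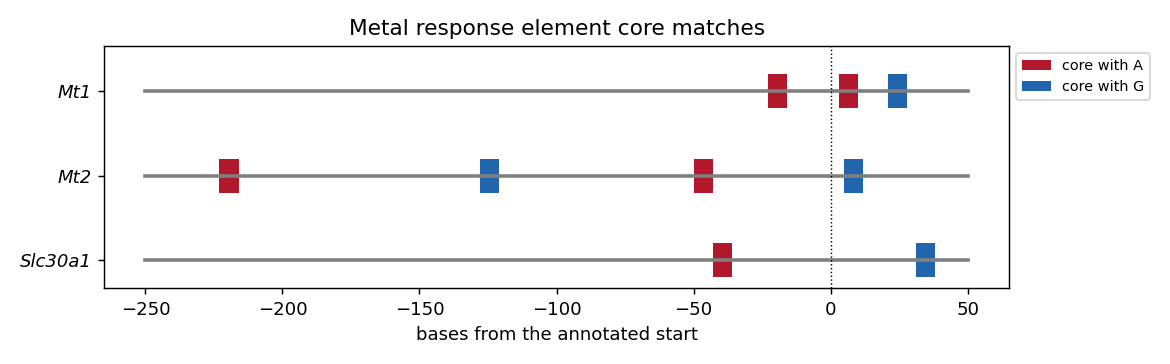
Matches to the metal response element core in the windows of Mt1, Mt2 and Slc30a1, with distance in bases from the annotated start on the x axis (negative before the start, which is the dotted line) and a row per gene; red boxes are TGCACNC and blue boxes TGCGCNC on either strand. Mt1 has 3 boxes around the start, Mt2 has 4 spread over the window and Slc30a1 has 2.

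In the comparison of lines, S42L cells had far more Slc39a4 transcript, more Mt1, Mt2 and Slc30a1, and less Slc39a14, Slc39a1 and Slc39a10 than wild-type cells. The direction of these 7 differences was the same under each androgen, although Slc39a10 was not called under DHT. Slc39a6 and the brightest probe of Mtf1 overlapped between the lines, whereas a dimmer Mtf1 probe was called lower in S42L cells under testosterone. Slc39a8 was not detected on any array. Values below are the deposited bead signals, on a linear scale and not background-subtracted, and then background-corrected, quantile-normalized log2 values. Levels are compared only within a probe.

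Slc39a4 encodes ZIP4, the plasma membrane zinc importer whose loss in humans causes the zinc deficiency disorder acrodermatitis enteropathica. Its brighter probe gave signals of 1376.8, 1549.7 and 1276 in S42L cells with DHT, against 133.5, 152.8 and 145.8 in wild-type cells with DHT. With testosterone it gave 1579.3, 1662.7 and 1436.8 in S42L cells, against 146.3, 139.5 and 135.7 in wild-type cells. The 6 S42L arrays lay far above the 6 wild-type arrays, of which 4 detected the probe at all, 2 under each androgen. On the normalized log2 scale the means were 10.38 ± 0.07 in S42L and 5.34 ± 0.35 in wild-type cells with DHT, and 10.38 ± 0.08 in S42L and 5.16 ± 0.30 in wild-type cells with testosterone (SD, n = 3 each). The log2 difference, S42L minus wild-type, was 5.05 ± 0.17 (SE) under DHT and 5.22 ± 0.17 under testosterone. Combined over both androgens it was 5.13 ± 0.12. Its size had rank 2 under DHT and rank 1 under testosterone and over both among the 19480 tested probes, which restates why the gene was listed. The wild-type signal was near background, and without background correction the difference over both was 3.31. The mean of the gene's probes gave 3.26. A dimmer second Slc39a4 probe was detected on 6 of 6 S42L arrays, with signals of 157.2 to 196.6, and on 0 of 6 wild-type arrays, with signals of 114 to 127.4. For that probe the S42L level was at least 1.82-fold higher, set against the lowest signal of any detected probe, so the 2 probes share the direction and differ in size.

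Slc39a14 encodes ZIP14, an importer of zinc, iron and manganese, and lay on the opposite side. Its brighter probe gave signals of 166.7, 158.8 and 145.1 in S42L cells with DHT, against 224.1, 235.1 and 190.8 in wild-type cells with DHT. With testosterone it gave 170.8, 184.7 and 149.7 in S42L cells, against 201.8, 204.6 and 237.6 in wild-type cells. The lines did not overlap under either androgen, although all signals lay close to background. The log2 differences were -1.19 ± 0.14 under DHT and -1.15 ± 0.14 under testosterone, and a second probe gave -1.07 ± 0.14 and -1.33 ± 0.14. That probe was detected on 2 of 3 S42L arrays with DHT, 1 of 3 S42L arrays with testosterone and 6 of 6 wild-type arrays, so its S42L level was near background and its differences are not exact. Without background correction the brighter probe's difference over both androgens was -0.49, in place of -1.17 ± 0.10.

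Slc39a10 encodes ZIP10, an importer expressed in the kidney. It gave signals of 206.3, 180 and 159.6 in S42L cells with DHT, against 199.4, 220.8 and 198.1 in wild-type cells with DHT. With testosterone the signals were 226.2, 204.3 and 163.8 in S42L cells, against 227.5, 206.9 and 268.9 in wild-type cells. The signals of Slc39a10 lay close to background. The raw signals of the lines overlapped under both androgens, whereas the normalized values, which take out differences in brightness between arrays, overlapped under neither. The log2 difference was -0.51 ± 0.17 under DHT, where it was not called, and -0.83 ± 0.17 under testosterone. Over both it was -0.67 ± 0.12, or -0.31 without background correction.

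Slc39a1 encodes ZIP1, a widely expressed zinc importer. Its signals were 179.3, 164.4 and 140.6 in S42L cells with DHT, against 195, 203.7 and 173.1 in wild-type cells with DHT. With testosterone they were 190.4, 172.1 and 157.7 in S42L cells, against 177.4, 184.4 and 221.3 in wild-type cells. The signals of Slc39a1 lay close to background. Raw signals of the lines overlapped under both androgens, and normalized values did not. Its normalized log2 level was 5.83 ± 0.23 in S42L and 6.52 ± 0.12 in wild-type cells with DHT, and 5.78 ± 0.16 in S42L and 6.50 ± 0.31 in wild-type cells with testosterone (SD, n = 3 each). The differences of -0.69 ± 0.16 and -0.72 ± 0.16 (SE) were of like size under the 2 androgens. Without background correction the difference over both was -0.28 in place of -0.71 ± 0.12.

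Slc39a6 encodes ZIP6, first described as the estrogen-regulated LIV-1 of human breast cancer cells. It was well detected on all 12 arrays, with signals of 2129.9 to 2571 in S42L and 2367.3 to 2719.7 in wild-type cells with DHT, and of 2554.4 to 2864.4 in S42L and 2261.7 to 2754 in wild-type cells with testosterone. The lines overlapped under each androgen, and the difference over both was -0.08, with a 95% interval of -0.25 to 0.10. Slc39a8 encodes ZIP8, an importer of zinc, manganese and cadmium, and its 2 probes were detected on 0 of 12 arrays. Their signals ran from 110.5 to 132.6, at the level of undetected probes, whose median per array was 108.9 to 129.5, and the gene was not tested.

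**Figure D2:**
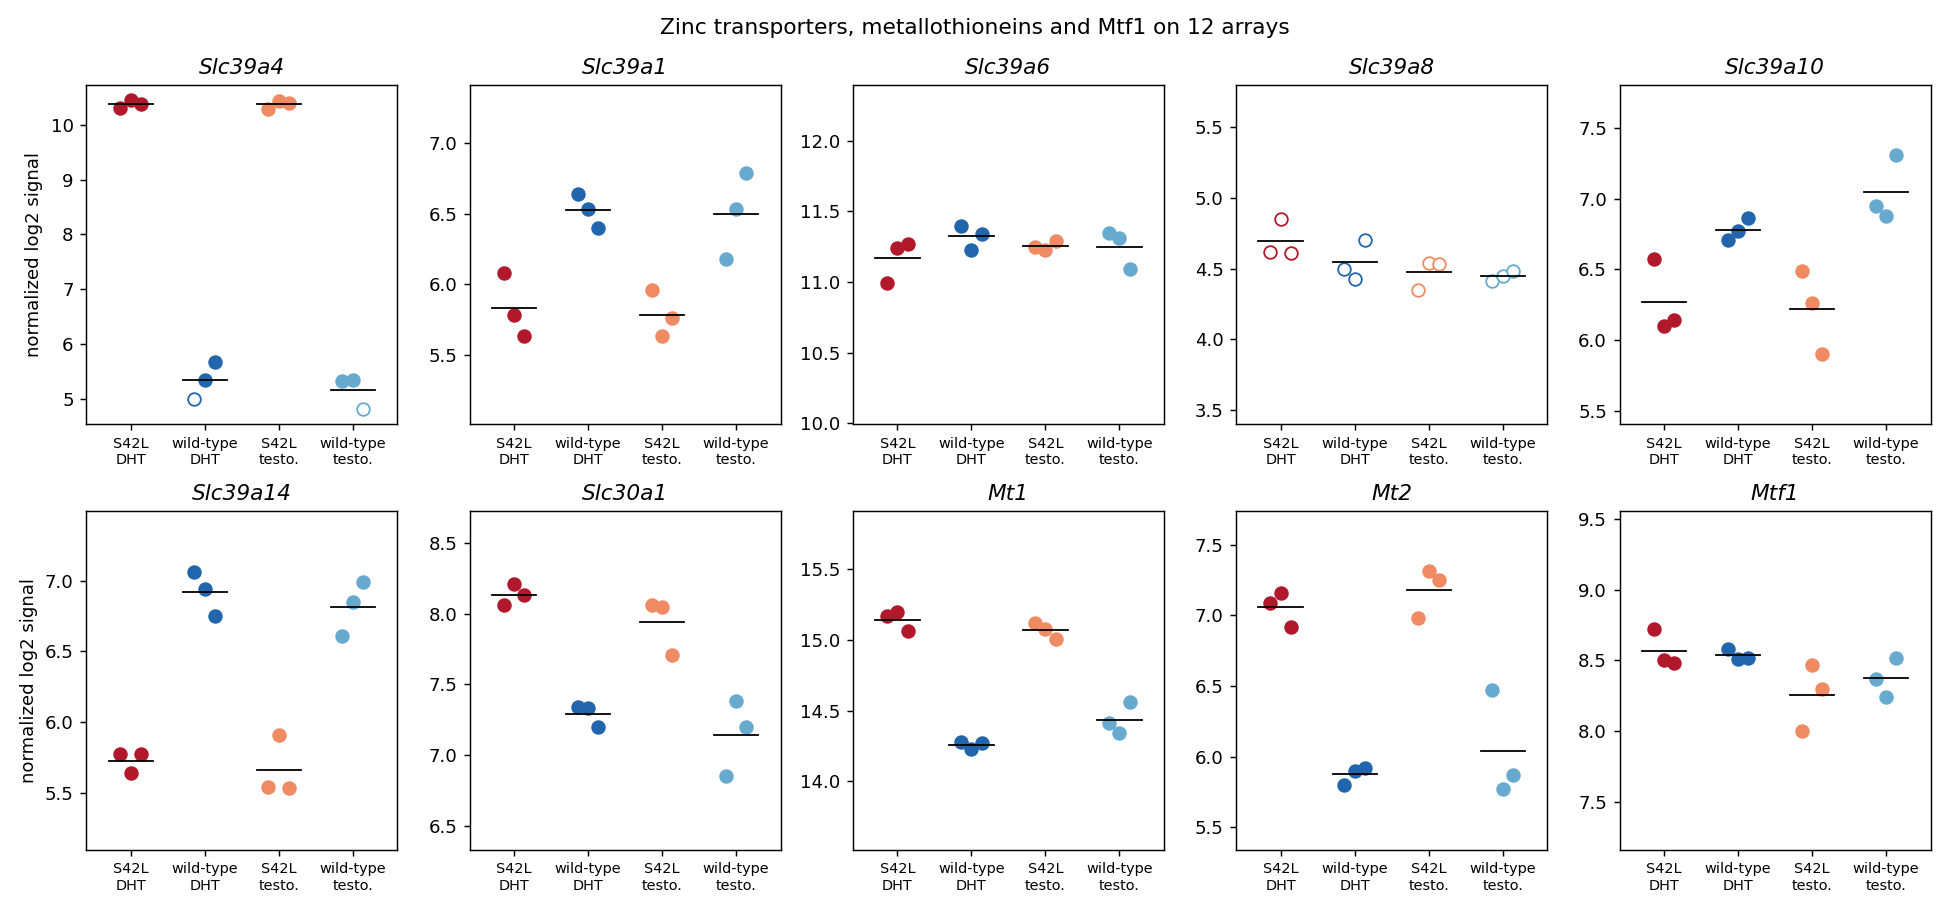
Normalized log2 signal of the 10 genes on each of the 12 arrays, a panel per gene with its own y range. Filled points were detected, open points were not, and bars are the means of 3 arrays; the lines separate for Slc39a4, Slc39a1, Slc39a10, Slc39a14, Slc30a1, Mt1 and Mt2 and overlap for Slc39a6, Slc39a8 and Mtf1.

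Slc30a1 encodes ZnT1, the plasma membrane exporter that carries zinc out of the cell. It gave signals of 376, 420.1 and 343.3 in S42L cells with DHT, against 250.1, 273.1 and 223.7 in wild-type cells with DHT. With testosterone it gave 440, 426.9 and 316.6 in S42L cells, against 219.1, 247.6 and 257.7 in wild-type cells. Every S42L array lay above every wild-type array. The log2 differences were 0.85 ± 0.14 under DHT and 0.80 ± 0.14 under testosterone, which is 1.80-fold and 1.74-fold. Over both they averaged 0.82 ± 0.10, or 0.53 without background correction.

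Mt1 encodes metallothionein-1 and was among the brightest probes on the array. Its signals were 40374.3, 37203.2 and 31379.8 in S42L cells with DHT, against 19328.7, 20978.5 and 18601.9 in wild-type cells with DHT. With testosterone they were 39011.5, 35741.1 and 30424.1 in S42L cells, against 22025.3, 19237.8 and 25291.4 in wild-type cells. By signal the probe ranked between 18 and 48 of 45281 on S42L arrays and between 121 and 169 on wild-type arrays. The S42L signals lay near the brightest value of their arrays, 38629.4 to 45541.3, and whether this limits the measured difference was not tested. The log2 difference was 0.88 ± 0.09 under DHT and 0.63 ± 0.09 under testosterone.

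Mt2, which encodes metallothionein-2 and lies next to Mt1, showed the same direction at a probe far from that upper limit. The wild-type signals of Mt2 lay close to background, so the size of its difference is not exact. Its signals were 247.6, 260.5 and 204.1 in S42L cells with DHT, against 155.4, 171.2 and 153.5 in wild-type cells with DHT. With testosterone they were 271.4, 301.5 and 259.2 in S42L cells, against 193.2, 151.8 and 168.4 in wild-type cells. The lines did not overlap, and replicate 1 of wild-type cells with testosterone was the highest wild-type array. The log2 difference was 1.18 ± 0.17 under DHT and 1.14 ± 0.17 under testosterone, and over both it was 1.16 ± 0.12, or 0.54 without background correction. The other metallothionein probes were also near background. Mt3 was detected on 0 of 12 arrays, and Mt4 on 0 of 6 S42L and 4 of 6 wild-type arrays, which limma did not call (adjusted p = 0.118).

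Mtf1 encodes the zinc-sensing factor MTF-1. Its brightest probe gave normalized log2 levels of 8.56 ± 0.13 in S42L and 8.54 ± 0.04 in wild-type cells with DHT, and 8.26 ± 0.24 in S42L and 8.38 ± 0.14 in wild-type cells with testosterone (SD, n = 3 each). The lines overlapped under each androgen, with a difference over both of -0.04 and a 95% interval of -0.25 to 0.16. That probe is annotated to a cDNA clone record, and the 2 probes annotated to the RefSeq transcript were near background. The first of these was detected on 2 of 6 S42L and 3 of 6 wild-type arrays and differed by 0.01 ± 0.12 under DHT and -0.47 ± 0.12 under testosterone. Under testosterone the brightest probe differed by -0.12 (95% interval -0.40 to 0.17) and was not called. The dimmer probe, detected there on 1 of 3 S42L and 3 of 3 wild-type arrays, had an interval of -0.74 to -0.21 and was called lower. The difference between the probes was not tested. In wild-type cells the dimmer probe was detected on 0 of 3 arrays with DHT and on 3 of 3 with testosterone, at least 1.23-fold lower with DHT (adjusted p = 0.178, limma). The other was detected on 2 of 6 S42L and 0 of 6 wild-type arrays and was not tested.

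Of the 10 genes 9 passed the detection filter, with 12 of the 15 probes. Fitted with limma over all 19480 tested probes, a difference was called at a Benjamini-Hochberg adjusted p under 0.05. Over both androgens 4 of these 9 genes were called higher and 3 lower in S42L cells, against 18.6% of all tested probes called higher, 19.2% called lower and 37.8% called in either direction. Under DHT 4 were called higher and 2 lower, against 11.7% and 11.3% of all tested probes and 22.9% in either direction. Under testosterone 4 were higher and 3 lower, against 12.3% and 11.5% and 23.8% in either direction. Arrays of the lines did not overlap for 7 of the 9 genes under DHT, against 42.7% of tested probes, and for 7 of 9 under testosterone, against 37.9%. The same 7 did so in 1 direction under both androgens, as held for 25.8% of tested probes. Nothing is read from these counts, since the line difference was known when the genes were listed. The median size of the difference over both androgens, without regard to sign, was 0.76 for the 9 genes and 0.21 for all tested probes, and the signed medians were -0.04 and -0.02. When each array was instead scaled to the same median, the difference over all probes had a median of 0.076 over both androgens and 0.112 under testosterone. The share of called probes that were higher in S42L cells was then 69.9% over both androgens, 66.7% under DHT and 78.5% under testosterone, against 49.1%, 50.9% and 51.8% with quantile normalization. Relative to that shift over both androgens, Slc39a4 stood at 5.13, Mt2 at 1.26, Slc30a1 at 0.91, Mt1 at 0.67, Slc39a10 at -0.57, Slc39a1 at -0.61 and Slc39a14 at -1.08. Mtf1 stood at 0.01 and Slc39a6 at -0.12.

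**Figure D3:**
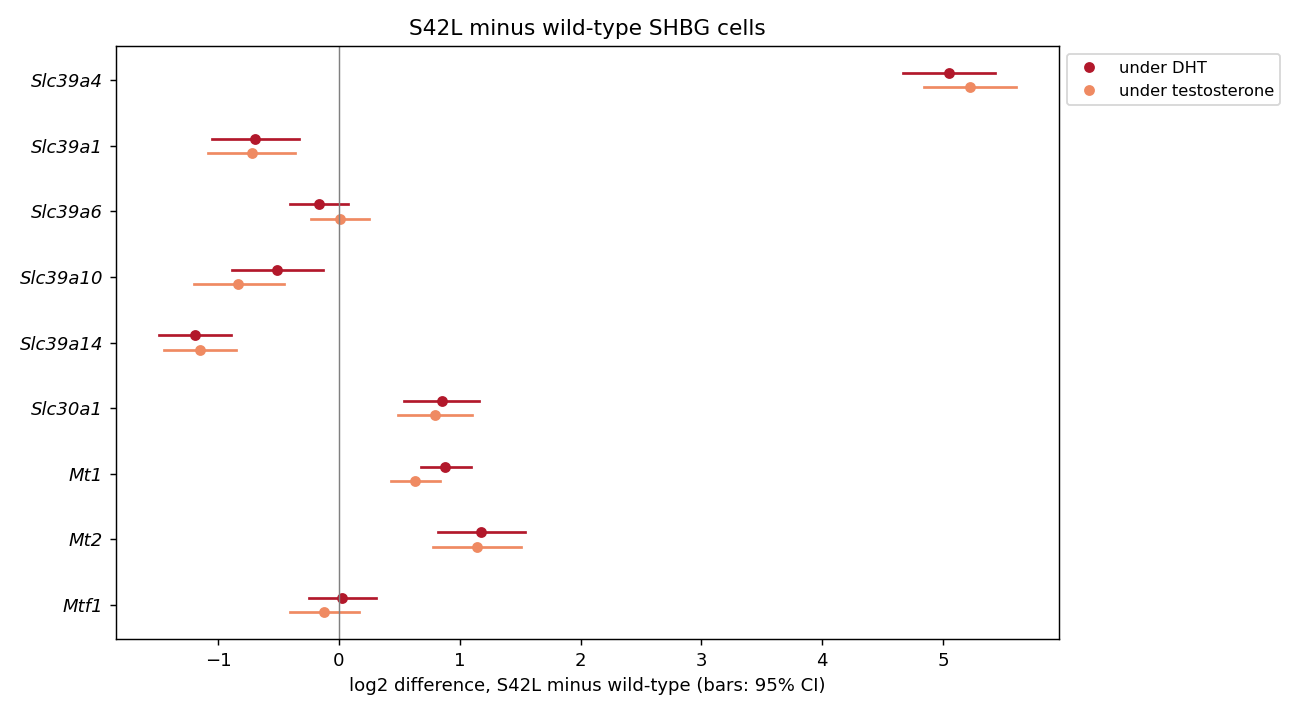
Log2 difference, S42L minus wild-type, of the 9 genes that passed the detection filter, under DHT (dark red) and testosterone (orange), with bars for the 95% confidence interval from limma. Slc39a4 stands near 5, Slc30a1, Mt1 and Mt2 lie right of 0, Slc39a1, Slc39a10 and Slc39a14 lie left of 0, and the intervals of Slc39a6 and Mtf1 cross 0.

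The androgen comparison, DHT minus testosterone within a line, was not used to choose the genes and was tested. In S42L cells limma called 0 of the 9 genes, against 0.267% of all tested probes, of which 0.0411% were higher and 0.226% lower with DHT. In wild-type cells it called 0 of 9, against 0.0719%, of which 0.0205% were higher and 0.0513% lower. Their adjusted p ran from 0.348 to 0.994 in S42L and from 0.498 to 0.972 in wild-type cells. At an unadjusted p under 0.05 there was 1 of 9 in S42L cells, Mtf1, and 0 of 9 in wild-type cells, against 13% and 11.9% of all tested probes. Slc39a4 differed by 0.01 (95% interval -0.37 to 0.38) in S42L and by 0.18 (-0.20 to 0.56) in wild-type cells. Mt1 differed by 0.08 (-0.13 to 0.28) in S42L and by -0.18 (-0.38 to 0.03) in wild-type cells, and Mt2 by -0.13 (-0.49 to 0.23) and -0.16 (-0.52 to 0.20). Mtf1 was at 0.31 (0.02 to 0.59) in S42L cells, with an adjusted p of 0.348, and at 0.16 (-0.12 to 0.44) in wild-type cells. Slc30a1 was at 0.20 (-0.11 to 0.50) in S42L and at 0.14 (-0.16 to 0.45) in wild-type cells, and Slc39a10 at 0.05 (-0.32 to 0.43) and -0.27 (-0.64 to 0.11). For the other 3 importers the differences ran from -0.09 to 0.10 over both lines. The median size of the androgen difference of the 9 genes, without regard to sign, was 0.08 in S42L and 0.16 in wild-type cells, against 0.14 and 0.13 for all tested probes. These intervals bound the differences between DHT and testosterone arrays at the precision of 3 arrays against 3. Since the androgens lay on separate chips, the differences hold androgen and chip together. They do not show that the androgens acted alike.

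The interaction asks whether the line difference depended on the androgen, as the S42L minus wild-type difference under DHT minus that under testosterone. By limma 0 of the 9 genes were called, against 0.00513% of all tested probes, a single probe, for the oxygen-sensing hydroxylase gene Egln3 at 1.63 ± 0.14 (adjusted p = 0.00135). At an unadjusted p under 0.05 there were 0 of 9, against 4.65% of all tested probes. The Mt1 line difference was larger under DHT by 0.25 (95% interval -0.04 to 0.54, adjusted p = 1). For Slc39a10 the interaction was 0.32 (-0.21 to 0.85) and for Slc39a4 -0.17 (-0.71 to 0.37).

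**Figure D4:**
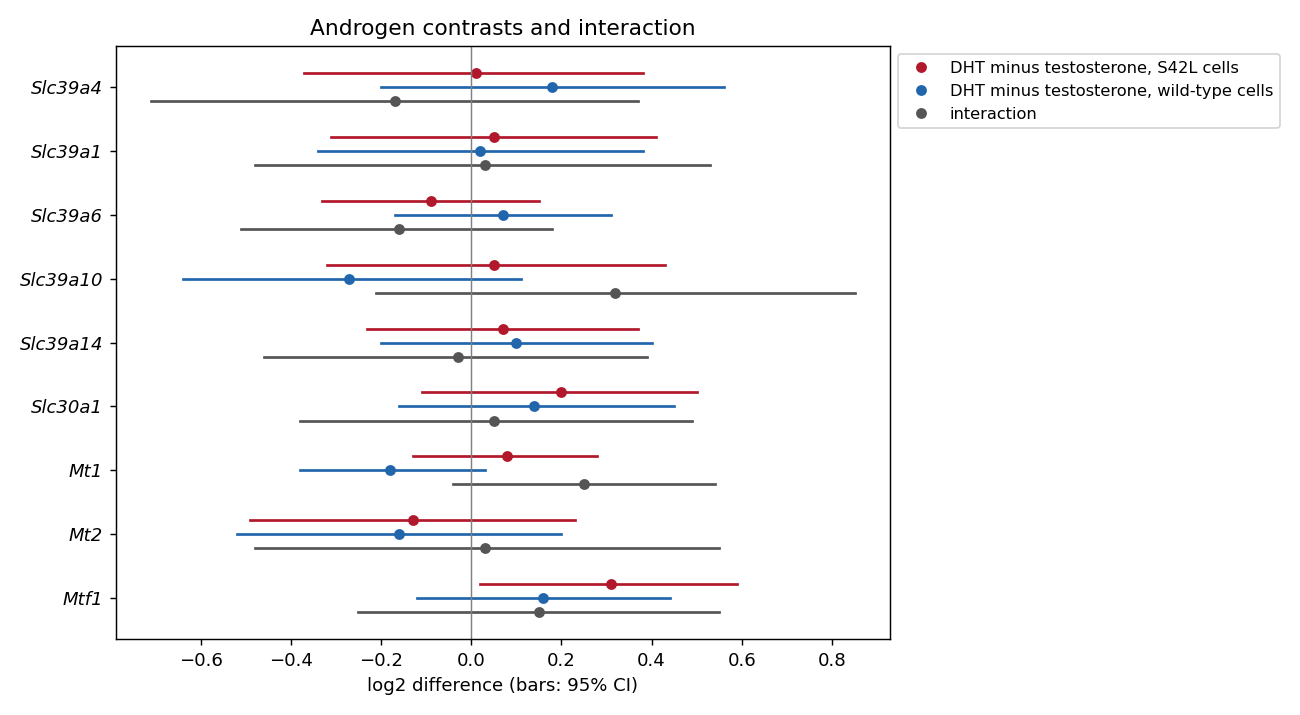
Log2 difference of DHT minus testosterone in S42L cells (red) and wild-type cells (blue), and the interaction of line and androgen (grey), for the 9 genes that passed the detection filter, with 95% confidence intervals. All intervals but that of Mtf1 in S42L cells, 0.02 to 0.59, include 0.

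Like the 10 genes, the lists below were chosen with earlier results of these data known. Their adjusted p-values in the line comparison are a description and support nothing. The list of other zinc transporters held the remaining members of both families. Of 17, 16 had a probe and 10 were tested in the line comparison over both androgens. Slc30a6, whose product ZnT6 works with ZnT5 in the secretory pathway, was higher in S42L cells at 0.32 ± 0.08 (adjusted p = 0.00947). Slc39a11, encoding ZIP11, was lower at -0.47 ± 0.08 (adjusted p = 0.000605), and Slc30a7, encoding the Golgi transporter ZnT7, was lower at -0.24 ± 0.08 (adjusted p = 0.038). The other 7 were not called, and the median was 0.02, against -0.02 for all tested probes. The Slc30a7 call ended with median scaling and with the replicate number as a block. The intestinal and islet genes Slc39a5, Slc30a2, Slc30a8 and Slc30a10 were detected on 0 to 2 of 12 arrays.

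Of 6 other names linked to MTF-1 in mouse cells 5 genes had a probe and 4 were tested. Csrp1, a LIM domain protein gene, was higher in S42L cells at 0.59 ± 0.07 (adjusted p = 2.96e-05), and Ndrg1, a stress-responsive gene, at 0.57 ± 0.10 (adjusted p = 0.000541). Gclc, the catalytic subunit of glutathione synthesis, differed by -0.12 ± 0.09 (adjusted p = 0.339) and Selenow by 0.29 ± 0.17 (adjusted p = 0.224). The list median was 0.43. All 9 copper handling genes had a probe and 8 were tested, of which 4 were higher and 1 lower, with a median of 0.34. Higher were Cox17, the copper chaperone of cytochrome oxidase (0.54 ± 0.08, adjusted p = 0.000246), Sod1, the copper and zinc superoxide dismutase (0.50 ± 0.07, adjusted p = 0.000106), its chaperone Ccs (0.48 ± 0.07, adjusted p = 0.000284) and Atox1, which hands copper to the exporting pumps (0.38 ± 0.09, adjusted p = 0.00506). The copper importer gene Slc31a1 was lower at -0.28 ± 0.08 (adjusted p = 0.0119), a call that ended with median scaling.

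Of 7 other divalent metal carriers, all tested, 4 were higher and 0 lower in S42L cells, with a median of 0.28. These were the kinase-linked channels Trpm7 (0.34 ± 0.10, adjusted p = 0.014) and Trpm6 (0.28 ± 0.09, adjusted p = 0.0264), the lysosomal channel gene Mcoln1 (0.32 ± 0.08, adjusted p = 0.00912) and Slc11a2, the iron importer DMT1 (0.29 ± 0.08, adjusted p = 0.0101). The Trpm7 call ended without background correction. Under DHT alone 1 of the 7 carriers, Mcoln1, was called higher, against 11.7% of all tested probes. Under testosterone alone it was 1 of 7, Slc11a2, against 12.3%. Of 11 tubule zinc enzymes 10 had a probe and 6 were tested, 3 higher, 0 lower and 3 not called, with a median of 0.60. The higher ones were the membrane peptidases Mme (1.32 ± 0.10, adjusted p = 1.48e-06), Anpep (0.90 ± 0.14, adjusted p = 0.00032, detected on 2 of 6 wild-type arrays) and Ace (0.85 ± 0.09, adjusted p = 2.18e-05). Anpep differed by 0.38 ± 0.20 under DHT, where it was not called, and by 1.43 ± 0.20 under testosterone. Its interaction of -1.06 ± 0.28 was not called (adjusted p = 0.717, limma). Among 9 glucocorticoid-induced genes 3 were higher and 2 lower, with a median of -0.07. Errfi1, which restrains the EGF receptor (0.62 ± 0.09, adjusted p = 0.000237), Tsc22d3, the glucocorticoid-induced leucine zipper (0.34 ± 0.09, adjusted p = 0.0086), and the kinase gene Sgk1 (0.31 ± 0.08, adjusted p = 0.00888) were higher. The transcription factor gene Klf9 (-0.56 ± 0.08, adjusted p = 0.000108) and Zfp36, an mRNA decay factor gene (-0.24 ± 0.07, adjusted p = 0.0228), were lower, and the Zfp36 call ended with median scaling. The list counts over both androgens stand against 18.6% of tested probes called higher, 19.2% called lower and 37.8% called in either direction. In the androgen comparisons and the interaction 0 genes of these lists were called.

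**Figure D5:**
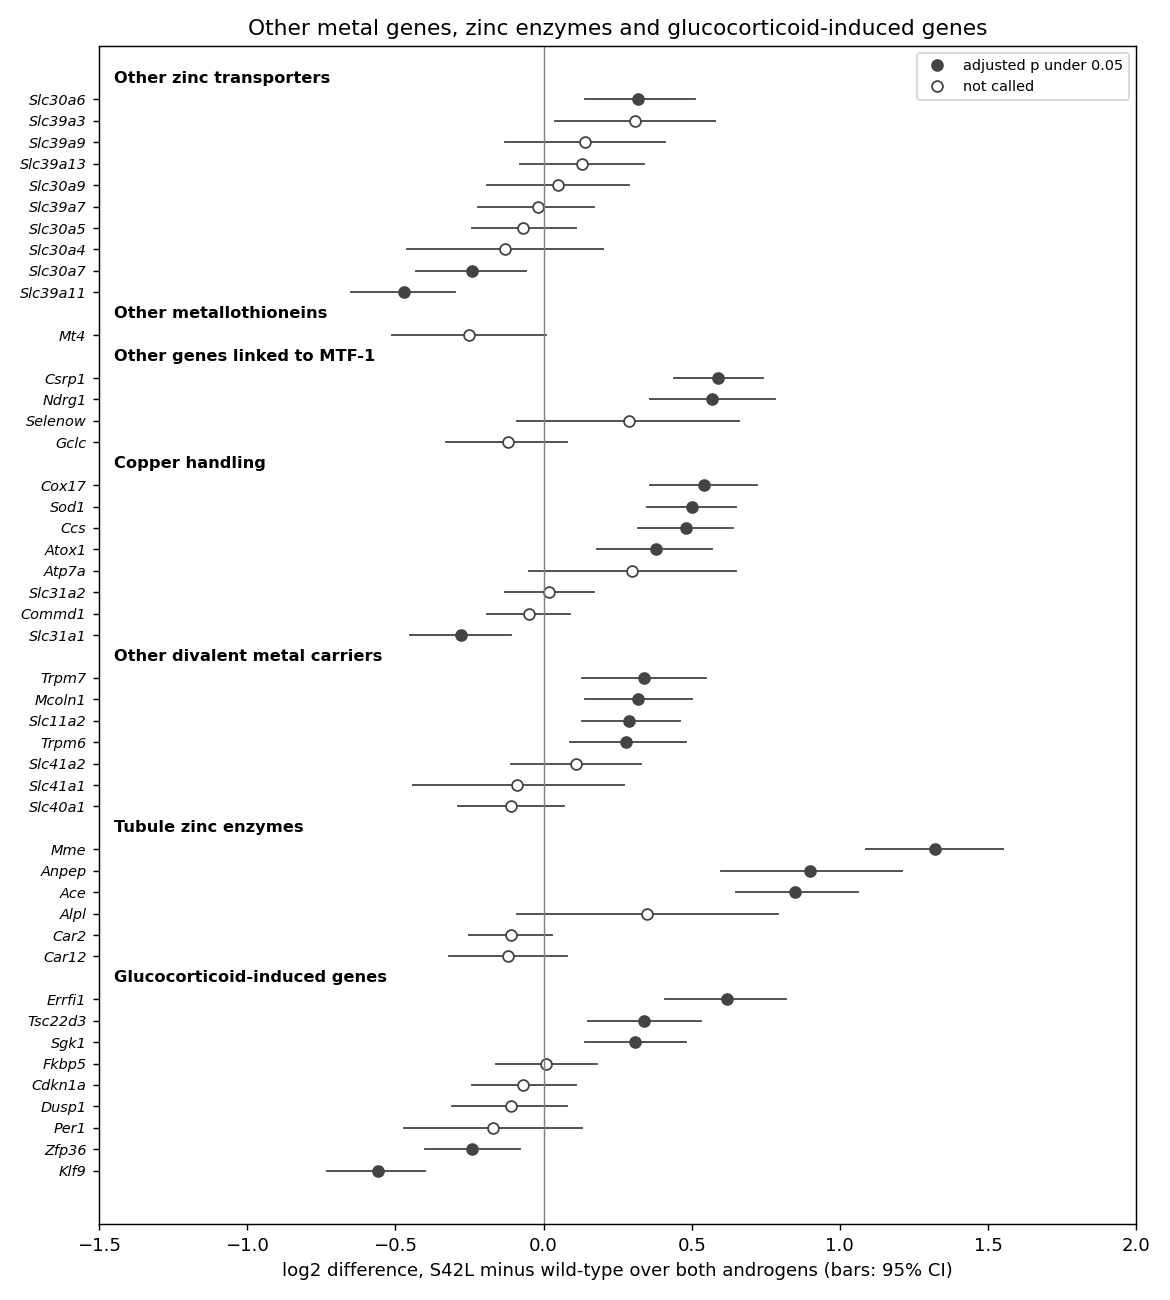
Log2 difference, S42L minus wild-type over both androgens, of the tested genes of 7 lists, a row per gene with its 95% confidence interval; filled points have an adjusted p under 0.05. Points lie on both sides of 0 among the other zinc transporters and the glucocorticoid-induced genes, and the filled points of the divalent metal carriers and zinc enzymes lie right of 0.

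Of the tested markers of the labelled cell type, all but Pax8 (0.09 ± 0.21, adjusted p = 0.77, limma) were called higher in S42L cells over both androgens. Of 14 proximal tubule markers 11 had a probe, 8 were detected on at least 1 array and 7 were tested, of which 6 were higher and 0 lower in S42L cells, against 18.6% of all tested probes called higher and 37.8% called in either direction. Their summed signal was 6769.9 to 9158.4 in S42L and 3574.2 to 4338.5 in wild-type cells with DHT, and 10847.7 to 12614.3 in S42L and 4109.8 to 5905.9 in wild-type cells with testosterone. The proximal markers with the largest differences were Cldn2 (3.17 ± 0.10), Mme (1.32 ± 0.10), Aqp1 (1.18 ± 0.11) and Anpep (0.90 ± 0.14). Anpep, detected on 2 of 6 wild-type arrays, passed the detection filter only through S42L arrays, so its part in the count supports nothing. Mme and Anpep are also among the zinc enzymes above, so these 2 lists are not separate. Under DHT 5 of 7 were called higher, against 11.7% of all tested probes, and under testosterone 6, against 12.3%. The apical transporters Slc34a1 and Slc22a6 and the endocytic receptor Cubn were detected on 0 of 12 arrays, and the glucose carrier Slc5a2 on 2, whereas Lrp2, Aqp1, Hnf4a and Pax8 were detected on all 12. Of 8 distal nephron markers 4 of 7 tested were higher and 0 lower, against 18.6% of all tested probes called higher and 37.8% called in either direction. They included Scnn1a at 2.81 ± 0.13 (adjusted p = 1.77e-08), a gene detected on 6 of 6 S42L and 1 of 6 wild-type arrays. Umod, at 0.71 ± 0.15, was also among them and was detected on 4 of 6 S42L and 0 of 6 wild-type arrays. Scnn1a and Umod passed the detection filter only through S42L arrays, so their part in the count supports nothing. Their wild-type levels were near background, so their differences are not exact. The summed signal of the distal markers was 9021.4 to 10357.4 in S42L and 6731 to 8480.1 in wild-type cells with DHT, and 10087.8 to 11936.2 in S42L and 6685.4 to 8730.6 in wild-type cells with testosterone. Of 7 fibroblast markers 2 were tested, and Dcn, which encodes the matrix proteoglycan decorin, was higher in S42L cells at 4.79 ± 0.10 (adjusted p = 2.08e-11). The other, the collagen gene Col1a1, was at -0.53 ± 0.20 (adjusted p = 0.0571) and was called lower with array weights and with an offset of 50, so the sign differed between the 2. Lum, Pdgfra and Pdgfrb were detected on 0 of 12 arrays. The summed fibroblast marker signal was 2445.2 to 3258.8 in S42L and 898.8 to 988 in wild-type cells with DHT, and 2248.9 to 2877.2 in S42L and 914.9 to 978.3 in wild-type cells with testosterone. Marker sums are not background-subtracted and include markers that were not tested. The fibroblast sum does not show a rise of the set, since of its tested markers only Dcn was higher. Of 5 immune markers 4 had a probe and 1 was tested, Csf1r, at 0.99 ± 0.10 (adjusted p = 1.23e-05), with Ptprc, Itgam and Cd3e detected on 0 of 12 arrays. Of 4 endothelial markers 1 was tested, Kdr, which was lower at -0.55 ± 0.20 (adjusted p = 0.0476), a call that ended with array weights. Kdr was near background, detected on 1 of 6 S42L and 4 of 6 wild-type arrays, and passed the detection filter only through wild-type arrays. The part of the marker differences in the zinc gene differences was not tested, and a smaller share of expressing cells cannot be told apart from less RNA per cell.

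By Pearson correlation of normalized values over the 12 arrays, the genes most like Slc39a4 among 10331 others were Gpc3 and Cfap58 (r = 0.997 each), Cnksr1 (0.996), Gstp3 and Tnnc2 (0.994 each). Gpc3 and Cfap58 were detected on 6 of 12 arrays and had means of 7.54 and 8.04 in S42L cells, against 4.53 and 4.69 in wild-type cells. The genes most like Mt1 were Esrp1 (r = 0.992), Vwa5a and Kif27 (0.990 each), Iqce (0.989) and Cytip (0.988). The 12 arrays fall into 2 lines, so these values describe mainly a shared line difference.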

How the data were processed

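For each array the deposited table holds the mean bead intensity of every probe, linear and without background subtraction, and next to it a detection p-value, per the file headers. The submitters' processing notes name BeadStudio without a version. Another deposited table of the authors' processed intensity values, with values below 0 and near equal quantiles, served as an alternative, and which background method made it is not given in the sources used here. The neqc function of limma 3.58.1 (R 4.3.3) corrected the background using the detection p-values, added an offset of 16, quantile-normalized and took log2. Quantile normalization removes a shift of most transcripts in 1 direction. Probes detected on at least 3 of 12 arrays, 19480 of 45281, were tested with lmFit and eBayes (8 residual and 4.32 prior degrees of freedom), 1 coefficient per group, two-sided, in 6 contrasts. The fit was tested on simulated data. Genes with several tested probes are represented by the brightest. All 10 genes and their probes are named; from other lists, up to 4 called genes a direction; for likeness, the 5 genes with the highest r. Members and lists were chosen with earlier results of these data known. The platform annotation names 1 gene for 34885 probes, several for 18 and none for 10378, and all 10 symbols matched RefSeq; list names without a probe of that symbol are not analysed here. Alternatives changed normalization, background, offset, filter, weights, prior, arrays, block and probe choice.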

Additional observations from a re-analysis of the deposited data

How the results depend on the processing

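Over 1188 alternative values for the 9 tested genes in 6 contrasts, 1177 kept their direction and their side of the threshold, or were uncalled in both, and 11 became calls with the same direction. Of these, 9 were Slc39a10 under DHT, main -0.51, at -0.37 to -0.66, among them -0.66 without replicate 1 of S42L cells with DHT and -0.51 without replicate 1 or 3 of S42L cells or replicate 3 of wild-type cells with testosterone, the others being Mt2 at -0.53 for DHT minus testosterone in wild-type cells with array weights and Mtf1 at -0.30 in the line comparison under testosterone with the mean of its probes. Leaving out single arrays gave Slc39a4 differences over both androgens of 5.04 to 5.22. The size of the Slc39a4 difference was lowest at 3.26 with the mean of its probes and 3.31 without background correction.

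Counts over all probes varied more. Array weights called 8905 probes in place of 4635 in the line comparison under testosterone. For DHT minus testosterone in S42L cells, 52 probes in the analysis as reported became 193 with median scaling (2.1% in place of 15.4% of them higher with DHT), 353 without background correction, 229 with an offset of 50, 30 with the authors' values, 29 with all probes, 175 with the stricter detection filter, 622 with array weights, 312 with a trended robust prior and 19 from those arrays alone, and 2 (without replicate 3 of S42L cells with DHT) to 194 (without replicate 3 of wild-type cells with testosterone) on leaving out single arrays. In wild-type cells 14 became 71 without background correction, 54 with the offset of 50, 4 with the authors' values, 9 with all probes, 33 with the stricter filter, 1838 with array weights, 95 with the trended prior, 0 from those arrays alone (limma, 1803 at an unadjusted p under 0.05), and 4 (without replicate 1 of wild-type cells with DHT or replicate 3 with testosterone) to 13 without single arrays. The interaction count of 1 became 2 without background correction, 2 with the offset of 50, 2 with the trended prior and 25 with array weights, and stayed 1 without any single array. The cause was not tested. Deviations of same-numbered replicates from their group means had r of -0.05 to 0.12 over 18 pairs, against -0.13 to 0.11 over 36 differently numbered pairs. These values give no sign of pairing by number but do not settle whether replicates were paired. With the replicate number as a block, 5 probes were called between androgens in S42L and 8 in wild-type cells, and it changed no call of the 9 genes.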
